A study of Mus musculus with 24 samples.

Results

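The messenger RNA of 38 hair cell and stereocilia genes was followed across 24 libraries of whole mouse cochlea. The genes were taken by name, with no threshold on measured values, and all 38 had an entry among the 23420 of the count table. Of these, 37 stood under the listed symbol and Dfnb31 stood under its current symbol Whrn, while Gpr98 is an older symbol of Adgrv1. All 38 passed the filter on low counts, as did 16607 entries in all.

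Hair cells are the sensory cells of the inner ear, and each carries a bundle of actin-filled stereocilia on its upper surface. Sound deflects the bundle, tip links between neighbouring stereocilia are pulled, and the mechanotransduction channel opens. Inner hair cells pass the signal to the auditory nerve at ribbon synapses, whereas outer hair cells amplify sound by changing length and receive cholinergic efferent fibres from the brainstem. Variants in many of these genes cause hereditary deafness, and loud sound is known to damage both the bundles and the synapses.

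All mice were of the strain CBA/Sca, aged 12 weeks, and all had undergone surgery, which was either adrenalectomy (ADX, removal of the adrenal glands and with them the main source of glucocorticoid hormones) or a sham operation. Mice of each surgery received 1 h of band noise (6 to 12 kHz, level 100 dB SPL) or a sham exposure, by day (ZT3, that is 3 h after lights-on) or by night (ZT15). The 8 groups that result had 3 libraries each, lettered a to c: day or night, noise or sham exposure, ADX or sham-operated. The series design gives collection 2 h after the noise, while the sample labels give ZT11 and ZT23, and the sources used here do not settle which holds. The study asked how glucocorticoids bear on the response of the ear to noise at different times of day.

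Each library held between 18894996 and 36108962 counts. Nothing in the labels ties the libraries to separate animals, so the p-values measure the spread between these samples, which may be technical. Fkbp5, a gene that glucocorticoids induce, served as a check of the surgery labels. Its level under sham exposure was 33.8 ± 2.87 CPM (SD, n = 3) with ADX and 70.8 ± 12.6 CPM without it by day, and 34.5 ± 8.5 against 96.0 ± 14.8 CPM by night. After day noise it was 61.7 ± 6.13 CPM in the libraries labelled ADX and 62.5 ± 21.7 CPM in the sham-operated ones, so that it did not separate these groups. After night noise the libraries labelled ADX had 87.6, 39.6 and 28.1 CPM, and the first of these lay within the sham-operated range of 85.0 to 132 CPM. The averaged ADX, noise and night minus day comparisons are therefore also given without the pair that holds the libraries labelled day noise ADX, whereas the interactions are given only with them. Night noise ADX a stays in the ADX and noise averages so given, while the night minus day average leaves it out. No fit of the ADX or noise average leaves out that library together with those labelled day noise ADX. Pituitary or cerebellar transcripts stood out in 3 libraries, namely b of night noise sham-operated, a of night noise ADX and b of day sham exposure sham-operated, and a fit without these 3 was run as well. Lower amounts stood in c of night noise ADX (Pomc at 49.4 CPM, beside 465 in a) and a of night noise sham-operated (Gabra6 at 5.8 CPM, beside 15.1 in b), and a fit without all 5 was added after the data had been seen, which leaves 1 library in each night noise group.

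Levels per length, in CPM per kilobase of exon, spanned the range from Ocm at 47.2 to Myo3a at 0.0357. Ocm encodes oncomodulin, a calcium buffer of outer hair cells. Rdx followed at 38.2 CPM per kilobase and encodes radixin, which links actin to the membrane in stereocilia and in many other cells. After these came Ush1c at 17.5, Cib2 at 15.9, Myo6 at 15.4 and Otof at 11.4 CPM per kilobase. The highest member of each role was Gfi1 among the transcription factors, Myo6 among the myosins, Cib2 in the transduction group, Ush1c among the Usher scaffolds, Rdx among the genes of the actin core and surface, Ocm in the outer hair cell group, Otof at the synapse and Chrna10 among the efferent receptors. The lowest were Tmc2 at 0.23, Atoh1 at 0.111, Gpr98 at 0.0957 and Myo3a at 0.0357 CPM per kilobase. Grxcr1, Tmc2, Atoh1 and Myo3a had mean counts under 20 per library, so counting error is part of their spread. Counting alone would give coefficients of variation of 23.4%, 23.4%, 41.3% and 37.7% in that order, beside the observed 43.1%, 44.7%, 70.5% and 42.8%.

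**Figure D1:**
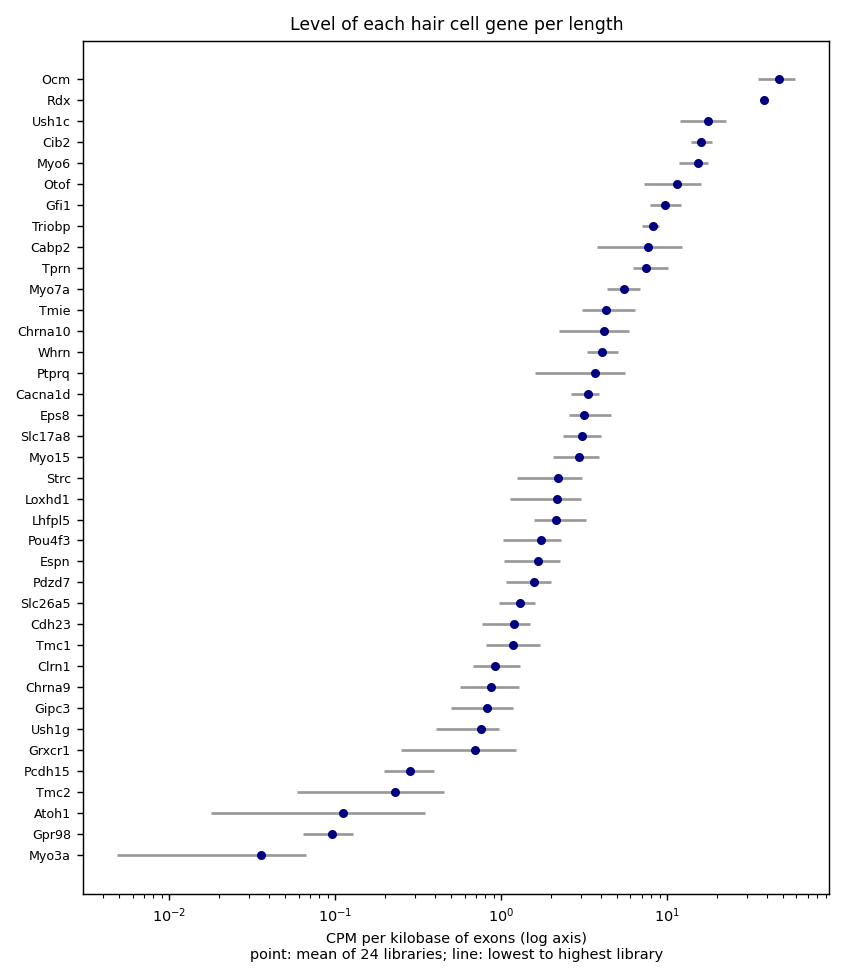
Level of each of the 38 genes in CPM per kilobase of exon, on a log axis, with a point for the mean of 24 libraries and a line from the lowest to the highest library. Ocm at 47.2 stands at the top and Myo3a at 0.0357 at the bottom, and the line is shortest for Rdx.

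The members differed in how steady they were. Rdx had a coefficient of variation of 2.88% over the 24 libraries, from 170 to 187 CPM, and Triobp, whose product bundles the actin of the stereocilia rootlet, had 5.2%. Cib2 at 8.93% and Myo6 at 9.58% were the other members at or under 10%. At or above 20% stood 12 members, among them Ptprq at 28.5%, Cabp2 at 26.5% and Loxhd1 at 24.3%. Ocm varied by 12.3% and Otof by 19.9%, so the most abundant member per length was also among the steadier ones.

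Many members varied together from library to library. Over the 24 libraries, which share cochlear dissection and depth as well as group, the log2 level of Otof had a Pearson correlation of 0.964 with the mean of the other members. The value was 0.931 for Espn, 0.914 for Loxhd1, 0.908 for Ptprq and 0.907 for Ush1c, and 12 members reached at least 0.8. In 7 members it was under 0.3: Rdx at -0.173, Eps8 at -0.03, Myo3a at 0.014, Tprn at 0.10, Triobp at 0.14, Cacna1d at 0.242 and Slc26a5 at 0.278. Over the 703 pairs of members the median correlation was 0.367, and it was 0.29 once each group's mean had been removed. These correlations are a description and carry no test.

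**Figure D2:**
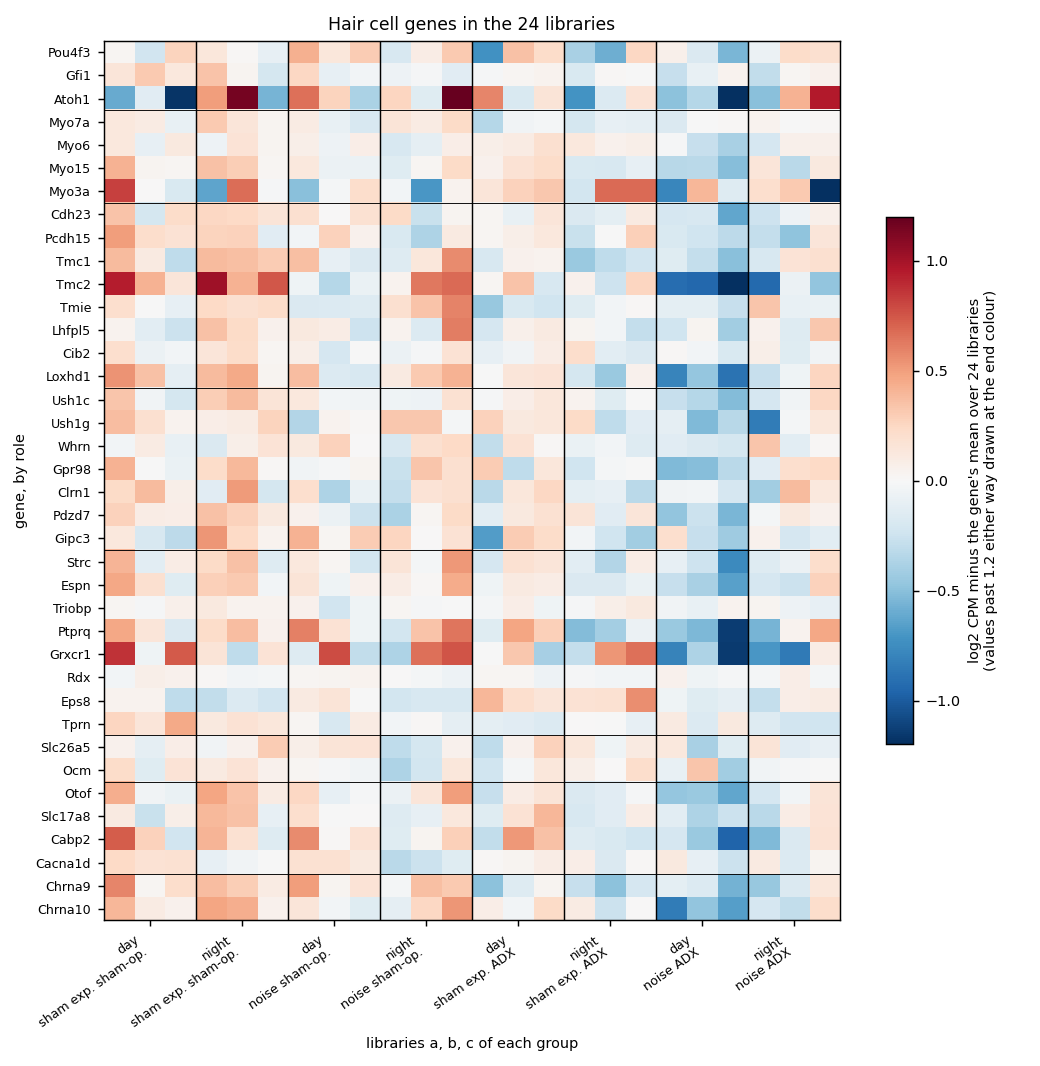
Log2 CPM of each gene minus its own mean, by gene (rows, ordered by role) and library (columns, 3 for each of 8 groups), with red above and blue below the mean and values past 1.2 drawn at the end colour. The columns of day noise ADX are the bluest, with member means of -0.239, -0.243 and -0.463.

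The mean over members, each centred on its own mean log2 level, was lowest in the 3 libraries labelled day noise ADX, at -0.239, -0.243 and -0.463. Night noise ADX a came next at -0.183. The highest values were 0.295 in day sham exposure sham-operated a and 0.275 in night noise sham-operated c. In whole tissue, fewer hair cells in a sample and less RNA per hair cell cannot be told apart.

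Averaged over noise and period, ADX libraries were compared with sham-operated ones. Of the 38 members 8 were lower and 1 was higher with ADX at an adjusted p under 0.05 in edgeR, where 3.2% of all 16607 genes were called in either direction. The 8 were Tmc2, Tmie, Loxhd1, Espn, Tprn, Otof, Chrna9 and Chrna10, and the gene that rose was Eps8. The fitted log2 change was negative in 36 of 38 members with a median of -0.19, against a median of 0 over all genes. In each of the 4 pairs of groups that make up the average, taken on the fitted changes, 15 members (39.5%) were lower with ADX, beside 7.83% of all genes. None of the 38 was higher in all 4, where 8.5% of all genes were. Many members vary together, so such counts, here and below, are not 38 separate readings. The 4 pairs include that of day noise.

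The libraries labelled day noise ADX are part of that average, and Fkbp5 does not set them apart as ADX. Averaged over the 3 other pairs, a comparison added after the data had been seen, 33 of 38 members were negative with a median log2 change of -0.14, and 5 were lower and 1 was higher at the threshold where 6.73% of all genes were called. Tmc2, Tmie, Tprn and Chrna9 were again lower and Eps8 again higher. Myo7a, the myosin of the upper tip link and a general hair cell marker, joined them at -0.21 on the log2 scale (SE 0.05, adjusted p = 0.0159 in edgeR). Loxhd1 (-0.32, adjusted p = 0.0697), Otof (-0.26, adjusted p = 0.0874), Espn (-0.24, adjusted p = 0.116) and Chrna10 (-0.26, adjusted p = 0.103) kept their sign and did not pass. With all 4 pairs and 1 library left out at a time, 5 to 12 members passed. The count was 5 without night sham exposure ADX c.

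**Figure D3:**
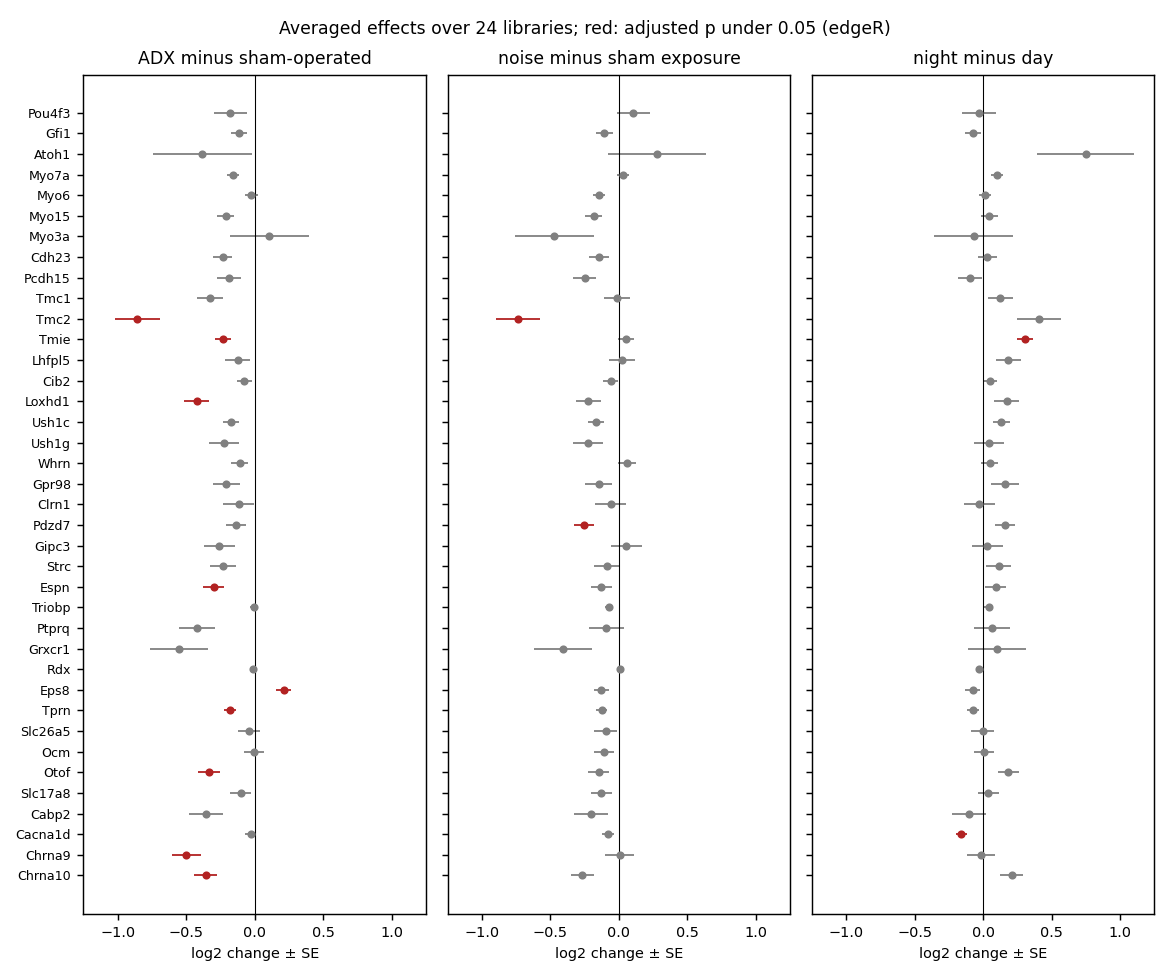
Log2 change with its standard error for each of the 38 genes in the 3 averaged comparisons over 24 libraries, with red for an adjusted p under 0.05 in edgeR. The left panel, ADX minus sham-operated, has 36 points below 0, while noise minus sham exposure has 29 and night minus day has 12.

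Among the single pairs behind the average, ADX by night under sham exposure gave 33 negative members with a median of -0.27 and 13 members at an unadjusted p under 0.05 (34.2%, beside 14.9% of all genes). Only Eps8 passed after adjustment in edgeR, where 1.58% of all genes did, while DESeq2 called 3 members and limma voom 4. By day under sham exposure 0 members passed in edgeR, where 0.0422% of all genes did, with 4 members at an unadjusted p under 0.05 (10.5%, beside 11.3% of all genes) and 1 member called by each of DESeq2 and limma voom. After day noise 34 members were negative with a median of -0.33, and 17 had an unadjusted p under 0.05 (44.7%, beside 11.7% of all genes). None of these passed in edgeR, DESeq2 or limma voom, and 0% of all genes passed in edgeR. After night noise 24 members were negative, 4 had an unadjusted p under 0.05 (10.5%, beside 8.55% of all genes), and 0 passed in any of these tools, with 0% of all genes passing in edgeR. These 4 pairs share no library with each other. ADX after day noise does share the libraries labelled day noise ADX with noise by day in ADX mice, described below. Leaving out 1 library, the count became 2 without day noise ADX a for ADX after day noise, 1 without day sham exposure sham-operated b for ADX by day under sham exposure, and 0 for ADX by night under sham exposure without night sham exposure ADX c or any of the 3 sham-operated libraries of that pair.

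Averaged over period and surgery, 2 members, Tmc2 and Pdzd7, were lower after noise and 0 were higher at the threshold in edgeR, where 4.81% of all genes were called. A share of 2 in 38 is near that background. The median log2 change was -0.12, 29 members were negative, and 11 had an unadjusted p under 0.05, all of them lower (28.9%, beside 18.7% of all genes). Lower in all 4 pairs of noise and sham exposure were 10 members (26.3%), beside 10.6% of all genes: Gfi1, Myo6, Myo3a, Cdh23, Pcdh15, Tmc2, Cib2, Pdzd7, Triobp and Chrna10. Averaged over the 3 pairs other than day ADX, also added after the data had been seen, the median was -0.05, Tmc2 (-0.53, adjusted p = 0.175) and Pdzd7 (-0.18, adjusted p = 0.394) did not pass, and Tprn alone was called at -0.22 (SE 0.05, adjusted p = 0.0154), where 2.02% of all genes were. With all 4 pairs, the count was 3 without library c of night sham exposure sham-operated, 4 without c of night noise ADX, 5 without c of night noise sham-operated, 1 without any of 15 other libraries and 2 without any of the remaining 6. Pdzd7 was the call that was lost, with 6 of 24 such fits passing it, and Tmc2 passed in 24 of 24. Pdzd7 did not pass without the 3 libraries with other tissue (adjusted p = 0.109), and without all 5 neither Tmc2 (-0.58, adjusted p = 0.174) nor Pdzd7 did (-0.18, adjusted p = 0.351).

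Of the 4 noise pairs that of day ADX had the lowest median. There 33 members were negative with a median log2 change of -0.35, 17 had an unadjusted p under 0.05 (44.7%, beside 23.5% of all genes) and 6 were called lower, where 4.02% of all genes were called. The 6 were Myo6, Myo15, Tmc2, Loxhd1, Ush1c and Chrna10. For all 6 the 3 noise libraries lay below the 3 sham-exposed ones. The 6 were picked by a test of the same libraries, so this adds no support. How many of all genes separate in this way was not counted. These calls rest on few libraries: leaving out library a of day noise ADX gave 10 members and leaving out b gave 2, while 1 member passed without day sham exposure ADX a or b, and 0 without day noise ADX c or day sham exposure ADX c. Whether this change differs from that of sham-operated mice by day alone was not tested. Fkbp5 was 33.8 CPM under sham exposure and 61.7 CPM after noise in this pair. Whether its groups differ in surgery as well as in noise was not tested. The same limit holds for the members and other genes given below for this pair.

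The other 3 noise pairs called 0 members in edgeR, DESeq2 and limma voom. By day in sham-operated mice 2 members had an unadjusted p under 0.05 (5.26%, beside 8.31% of all genes), with a median log2 change of -0.09, and 0.247% of all genes passed in edgeR. By night in sham-operated mice 3 members did (7.89%, beside 8.41% of all genes), with a median of -0.10, and 0.717% of all genes passed. By night in ADX mice 2 did (5.26%, beside 10.2% of all genes), with a median of 0.04, and 0.5% of all genes passed.

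Between night and day, averaged over noise and surgery, Tmie was higher and Cacna1d was lower at night, where 6.01% of all genes were called. The median over members was 0.04 and 12 were negative. Averaged over the 3 pairs other than noise ADX, added after the data had been seen, 3.99% of all genes were called and the same 2 members passed, Tmie at 0.32 (SE 0.07, adjusted p = 0.00839 in edgeR) and Cacna1d at -0.24 (SE 0.05, adjusted p = 0.00647). There 20 members were negative, with a median of -0.01. After noise in sham-operated mice the same 2 members were called, in the same directions, where 1.12% of all genes were. Leaving out 1 library in that pair left 0 or 1 of these calls in each of 6 fits: 0 without day noise sham-operated a or b or night noise sham-operated b, and 1 without day noise sham-operated c or night noise sham-operated a or c. In sham-exposed sham-operated mice 0 passed in edgeR, DESeq2 and limma voom, where 0.265% of all genes passed in edgeR, and 1 had an unadjusted p under 0.05 (2.63%, beside 11.2% of all genes). In sham-exposed ADX mice 0 passed in the same 3 tools, with 2 at an unadjusted p under 0.05 (5.26%, beside 6.25% of all genes) and 0.0181% of all genes called in edgeR. After noise in ADX mice 34 members were higher at night with a median of 0.24, and 11 had an unadjusted p under 0.05 (28.9%, beside 18.3% of all genes). None of them passed in edgeR, where 0.62% of all genes did, or in limma voom, and 2 passed in DESeq2. Without day noise ADX a the edgeR count was 1, and without night noise ADX a it was 2. Night minus day after noise in ADX mice shares the libraries labelled day noise ADX with noise by day in ADX mice.

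No interaction was called for any member in edgeR. For noise by surgery 2 members had an unadjusted p under 0.05 (5.26%, beside 8.48% of all genes), 0% of all genes passed, and DESeq2 called 1 member. For noise by period 5 members did (13.2%, beside 5.5% of all genes), with 0.00602% of all genes passing, and for period by surgery 2 did (5.26%, beside 6.67% of all genes), with 0% of all genes passing; DESeq2 and limma voom called 0 members in both. A p that misses the threshold does not show that the effects were equal.

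Of the 3 transcription factors, Pou4f3 and Gfi1 keep hair cells differentiated and alive, and Atoh1 starts their formation in development. None was called in any of the 18 comparisons by edgeR, DESeq2 or limma voom. Gfi1 averaged 30.8 CPM, with 35.2 ± 2.54 CPM in day sham exposure sham-operated and 28.5 ± 3.17 CPM in day noise ADX (SD, n = 3). Its log2 level had a Pearson correlation of 0.402 with the mean of the other members, and 0.202 once each group's mean had been removed. Which cells of the tissue gave the reads of Gfi1 was not tested. Its averaged log2 change with ADX was -0.11 (SE 0.06, adjusted p = 0.343 in edgeR) and that with noise was -0.11 (SE 0.06, adjusted p = 0.365). Pou4f3 changed by -0.18 (SE 0.12) with ADX. After day noise it had 2.77 to 4.26 CPM with ADX and 4.49 to 5.52 CPM without, groups that do not overlap. Its unadjusted p in edgeR was not under 0.05 in this pair, which Fkbp5 did not separate. How many of all genes separate in this way was not counted. Atoh1 had between 0.0379 and 0.74 CPM, a level at which single reads move the value.

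The myosins of the set move cargo within stereocilia or anchor them at the base. Myo6, which works at the base of the bundle, had 194, 198 and 211 CPM in day sham exposure ADX and 184, 152 and 142 CPM in day noise ADX. All 3 noise libraries were lower, c the lowest, with a log2 change of -0.34 (SE 0.09, adjusted p = 0.0445 in edgeR). Myo15, the motor that carries proteins to the stereocilia tips and sets their length, had 38.5, 41.8 and 43.2 CPM against 29.4, 29.7 and 26.1 CPM in the same groups. It fell by 31.0% (log2 change -0.54, SE 0.12, adjusted p = 0.0198), and its groups did not overlap. In sham-operated mice by day noise gave Myo6 a log2 change of -0.02 (SE 0.09) and Myo15 one of -0.17 (SE 0.12), neither called. Without day noise ADX c the adjusted p was 0.225 for Myo6 and 0.116 for Myo15, and for Myo6 it was 0.0501 with no filter on low counts and 0.0963 in a fit of these groups alone. Myo3a had under 1 CPM in each library and no call. Myo7a changed by -0.16 (SE 0.04, adjusted p = 0.0591 in edgeR) with ADX in the average over 4 pairs, and DESeq2 called it there.

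Of the called members Tmc2, in the tip link and transduction group, had the largest fitted changes. It lies at chr2:130195194-130264445 on the plus strand in GRCm38 and encodes a channel subunit that the immature cochlea uses before Tmc1 takes over. Its level was 0.19 to 0.876 CPM with a median of 0.567 in the 12 ADX libraries and 0.516 to 1.44 CPM with a median of 0.926 in the 12 sham-operated ones. The arms overlap. The day noise libraries were the lowest 3 of the sham-operated ones, and among the ADX ones night noise a, at 0.314 CPM, lay between those of day noise. Its averaged log2 change was -0.86 with ADX (SE 0.16, adjusted p = 0.00604 in edgeR) and -0.74 with noise (SE 0.16, adjusted p = 0.00753), and the ADX call passed in 24 of 24 fits that left out 1 library. These values rest on 5 to 41 counts per library. Which cells of the tissue gave the reads of Tmc2, vestibular ones among them, was not tested.

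By day in ADX mice Tmc2 had 0.684, 0.876 and 0.579 CPM under sham exposure and 0.319, 0.313 and 0.19 CPM after noise. The groups do not overlap, and the log2 change was -1.35 (SE 0.35, adjusted p = 0.0347 in edgeR, and 0.088 in a fit of these groups alone). In sham-operated mice by day it had 1.37, 0.925 and 0.753 CPM under sham exposure and 0.649, 0.516 and 0.632 CPM after noise. There too the groups did not overlap, but the log2 change of -0.74 (SE 0.32, adjusted p = 0.519) did not pass. By night the change with noise was -0.29 (SE 0.29) in sham-operated and -0.57 (SE 0.33) in ADX mice, and the groups overlap in both. Tmc1, the channel subunit of the mature hair cell, changed by -0.33 with ADX (SE 0.09, adjusted p = 0.0541) and by -0.01 with noise (SE 0.09).

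Loxhd1, which mature hair cells need for transduction, had 9.97 to 22.2 CPM with a median of 16.9 in ADX libraries and 16.2 to 27.0 CPM with a median of 23.4 in sham-operated ones. The arms overlap, and all 3 libraries labelled day noise ADX lay below every sham-operated library. Its averaged change with ADX was -0.42 (SE 0.09, adjusted p = 0.0142 in edgeR), and -0.32 (adjusted p = 0.0697, not called) without the day noise groups. By day in ADX mice it had 18.5, 20.5 and 20.7 CPM under sham exposure and 10.7, 13.4 and 9.97 CPM after noise. The noise libraries were all lower, by 42.7% in the fit (adjusted p = 0.0202, and 0.115 without day noise ADX c). By night in ADX mice noise gave a log2 change of 0.18 (SE 0.18).

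Tmie, at chr9:110865711-110880113 on the minus strand, encodes a small membrane protein that ties the channel to the tip link. By night it had 15, 16.6 and 19.8 CPM in noise-exposed sham-operated mice, and by day 11.6, 11.7 and 11.8 CPM. The night libraries were all higher and the day libraries nearly equal, a log2 difference of 0.55 (SE 0.12, adjusted p = 0.0227 in edgeR, 0.111 without night noise sham-operated c, and 0.105 in a fit of these groups alone). Averaged over noise and surgery the rise at night was 0.30 (SE 0.06, adjusted p = 0.00314), positive in all 4 pairs and called in 24 of 24 fits that left out 1 library. With ADX it fell by 0.23 on the log2 scale (SE 0.06, adjusted p = 0.0315), with 9.54, 11.5 and 11.1 CPM against 15.1, 13.1 and 12.3 CPM by day under sham exposure. These groups did not overlap, though Tmie was not called in this pair in edgeR. After day noise the log2 change was 0.00 (SE 0.12). The ADX call passed in 13 of the 24 fits that left out 1 library, with a highest adjusted p of 0.0741 without day sham exposure ADX a. Of its exonic length 7.89% overlaps Als2cl on the opposite strand, and whether the counting used strand is not given in the sources used here.

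The other transduction members were not called in edgeR, while DESeq2 called Cdh23 and Tmc1 lower with ADX in the average, and both DESeq2 and limma voom called Tmc1 for ADX by night under sham exposure. Cdh23 and Pcdh15, the cadherins that form the tip link, changed by -0.23 (SE 0.07, adjusted p = 0.0747 in edgeR) and -0.19 (SE 0.09, adjusted p = 0.261) with ADX, negative in all 4 pairs for both. Cib2, a calcium-binding partner of the channel and the most abundant of this role per length, had group means between 21.6 ± 1.55 CPM in day noise ADX and 24.8 ± 1.72 CPM in night sham exposure sham-operated. Lhfpl5, which joins the tip link to the channel, changed by -0.12 (SE 0.09) with ADX.

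**Figure D4:**
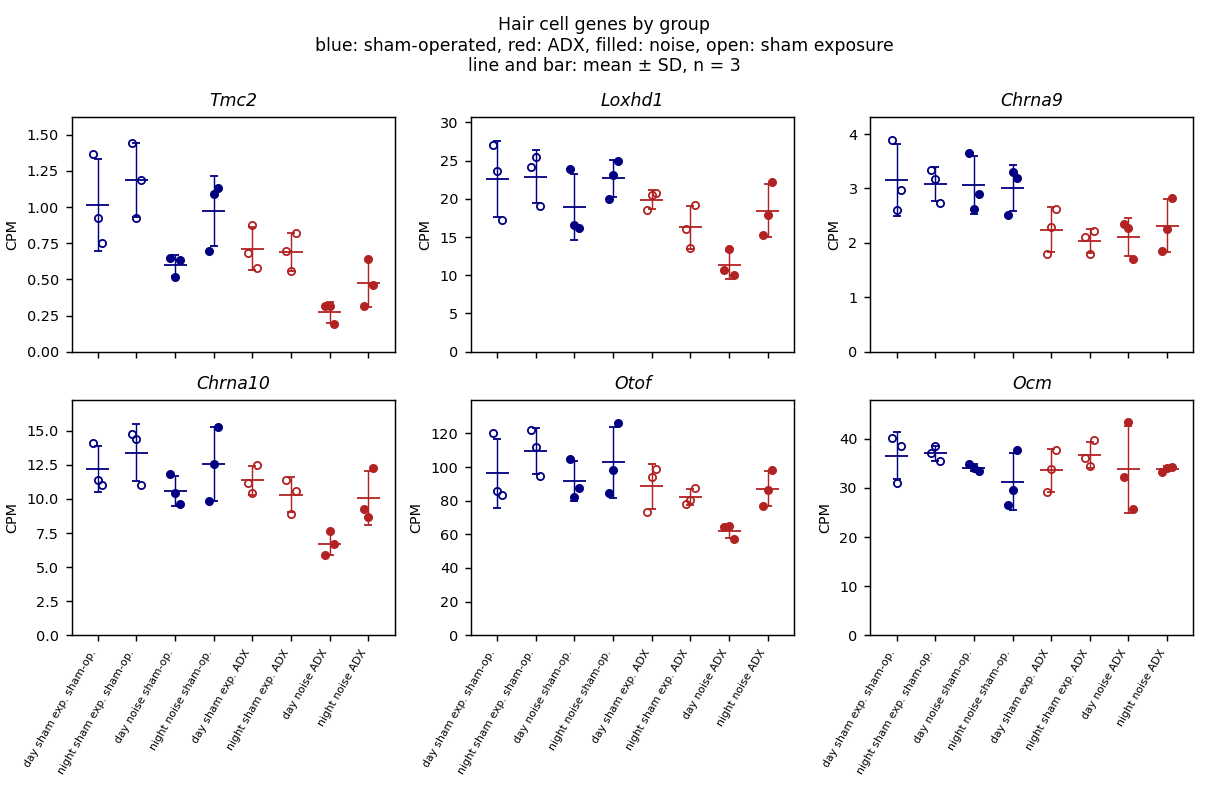
CPM of Tmc2, Loxhd1, Chrna9, Chrna10, Otof and Ocm by group, with a point per library and the mean ± SD (n = 3), blue for sham-operated, red for ADX, filled for noise and open for sham exposure. Day noise ADX holds the lowest libraries of Tmc2, Loxhd1, Otof and Chrna10, while for Ocm its libraries span 25.8 to 43.4 CPM, the whole range of the gene.

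Usher scaffolds and ankle links, counted here with Gipc3, were all negative with ADX in the average, 7 of 7. In edgeR 0 were called, and 2 (Ush1c and Gipc3) had an unadjusted p under 0.05, beside 16.9% of all genes. Ush1c encodes harmonin, the scaffold that anchors the upper end of the tip link. By day in ADX mice it had 65.8, 70.5 and 73.4 CPM under sham exposure and 55.1, 52.7 and 46.4 CPM after noise. The noise libraries were all lower, a log2 difference of -0.44 (SE 0.12, adjusted p = 0.0445, rising to 0.2 without day noise ADX c and 0.0554 with no filter on low counts). In sham-operated mice by day the change was -0.02 (SE 0.12). Whrn, the scaffold whirlin of the tip and ankle-link complexes, changed by -0.11 (SE 0.06) with ADX and by 0.06 (SE 0.06) with noise.

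Pdzd7 organises the ankle links near the bundle's base and lies at chr19:45026906-45045717 on the minus strand. It had 4.28 to 7.36 CPM with a median of 6.08 in the 12 noise libraries and 5.72 to 8.02 CPM with a median of 6.89 in the 12 sham-exposed ones. The arms overlap, and the 3 lowest noise libraries were day noise ADX a and c and night noise sham-operated a. The averaged change was -0.26 (SE 0.07, adjusted p = 0.044 in edgeR), with -0.49 (SE 0.15) by day in ADX mice, -0.24 and -0.28 by day and night in sham-operated mice and -0.02 (SE 0.14) by night in ADX mice. Gpr98, the long adhesion receptor of the ankle links, Ush1g, Clrn1 and Gipc3 had no call in any comparison by edgeR, DESeq2 or limma voom.

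Since the study removed the source of glucocorticoids, promoters of the members were searched for the letters ACANNNTGT, the core of the glucocorticoid receptor element, on both strands of the 250 bases before each RefSeq start (GRCm38.p6). The table matched 31 of the 38 members with 40 windows, of which 2 held the letters (5.0%), those of Pdzd7 and Triobp, beside 5.84% of all 32851 windows. The E-box CACGTG, which clock factors bind, was in 0 of the 40, beside 6.02% of all, and the D-box TTATGNAA was in 1 (2.5%), that of Slc17a8, beside 3.07%. These shares are near or under those of all windows, and a match is a description of letters, not a binding site. The Pdzd7 window is shown because it holds the match, in capitals, and those of the 2 efferent receptor genes because both were called lower with ADX; neither of these holds any of the 3 motifs. Windows are written 5′ to 3′ on the strand of the gene, and that of Chrna10 is the stretch outside annotated exons.
Pdzd7, chr19:45045773-45046022, minus strand: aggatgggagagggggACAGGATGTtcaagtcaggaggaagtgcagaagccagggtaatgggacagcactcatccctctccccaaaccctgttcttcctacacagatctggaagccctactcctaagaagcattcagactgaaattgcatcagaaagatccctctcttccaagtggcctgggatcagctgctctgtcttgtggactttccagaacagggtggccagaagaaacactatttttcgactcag
Chrna9, chr5:65966874-65967123, plus strand: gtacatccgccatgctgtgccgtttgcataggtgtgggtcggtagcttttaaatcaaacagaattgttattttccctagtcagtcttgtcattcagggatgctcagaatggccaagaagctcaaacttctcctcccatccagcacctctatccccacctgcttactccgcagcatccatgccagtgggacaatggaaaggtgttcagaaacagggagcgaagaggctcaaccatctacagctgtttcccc
Chrna10, chr7:102116829-102116963, minus strand: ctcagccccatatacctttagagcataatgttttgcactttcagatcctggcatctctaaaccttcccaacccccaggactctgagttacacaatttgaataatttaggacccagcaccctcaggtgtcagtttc

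Chrna9 and Chrna10 encode the subunits of the acetylcholine receptor through which efferent fibres inhibit hair cells, and both were called lower with ADX. Chrna9 had 1.71 to 2.82 CPM with a median of 2.24 in the 12 ADX libraries and 2.52 to 3.89 CPM with a median of 3.07 in the 12 sham-operated ones. The arms overlap only between 2.52 and 2.82 CPM, where 2 of the ADX libraries lie, day sham exposure c and night noise c. The averaged change was -0.50 (SE 0.10, adjusted p = 0.0111 in edgeR), and without the day noise groups it was -0.49 (SE 0.12, adjusted p = 0.0171). The single pairs gave -0.48 and -0.59 by day and night under sham exposure and -0.54 and -0.38 by day and night after noise. With noise Chrna9 changed by 0.00 (SE 0.10).

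Chrna10 had 5.9 to 12.5 CPM with a median of 9.82 in ADX libraries and 9.61 to 15.3 CPM with a median of 11.6 in sham-operated ones, and the arms overlap widely. Its averaged change with ADX was -0.36 (SE 0.08, adjusted p = 0.0207 in edgeR), and -0.26 (adjusted p = 0.103, not called) without the day noise groups. By day in ADX mice it had 11.2, 10.4 and 12.5 CPM under sham exposure and 5.9, 7.62 and 6.67 CPM after noise. The noise libraries were all lower, a log2 difference of -0.75 (SE 0.17, adjusted p = 0.0172, rising to 0.0824 without day sham exposure ADX c). Chrna9 changed by -0.09 (SE 0.21) in the same pair. Of the exonic length of Chrna10 39.0% overlaps Art1 on the opposite strand, so without strand in the counting the reads of both genes would be mixed. Art1 had 3.1 ± 0.522 CPM in day noise ADX and 5.0 ± 1.06 CPM in day sham exposure ADX (SD, n = 3), and its averaged change with ADX was -0.02.

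Of the genes of the actin core, rootlet and surface, Espn and Tprn were lower and Eps8 was higher with ADX. Espn encodes espin, which bundles actin in stereocilia. It had 8.57 to 16.4 CPM with a median of 12.0 in ADX and 12.2 to 18.7 CPM with a median of 14.7 in sham-operated libraries. The arms overlap, and the averaged change was -0.30 (SE 0.08, adjusted p = 0.036 in edgeR), a call that 8 of 24 fits without 1 library passed, with a highest adjusted p of 0.0794 without day sham exposure ADX a. The adjusted p was 0.0571 without the 3 libraries with other tissue and 0.116 without the day noise groups, where the change was -0.24.

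Tprn encodes taperin, at the taper of the stereocilia base. By day under sham exposure it had 19.8, 19.6 and 19.3 CPM with ADX and 25.8, 23.9 and 29.5 CPM without. The ADX libraries were nearly equal and all lower, but the change of -0.43 (SE 0.09) had an adjusted p of 0.0668 in edgeR. Averaged over all 4 pairs the change was -0.18 (SE 0.04, adjusted p = 0.0218), with an adjusted p of 0.0521 without night sham exposure ADX c and 0.0688 without the 5 libraries with other tissue. After day noise the change with ADX was 0.04 (SE 0.09), and the groups overlap.

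Eps8 caps and bundles actin at the stereocilia tips and is expressed in many cell types. By night under sham exposure it had 43.5, 44.0 and 56.9 CPM with ADX and 31.5, 34.4 and 33.0 CPM without. The ADX libraries were all higher, a log2 difference of 0.55 (SE 0.11, adjusted p = 0.0178 in edgeR, rising to 0.13 without library c of that ADX group). The averaged change was 0.21 (SE 0.05, adjusted p = 0.0336), and 0.0719 without day sham exposure ADX a. Averaged without the day noise groups it was 0.35 (SE 0.06, adjusted p = 0.00228). After day noise the sign was the other way, with 37.2, 34.8 and 35.9 CPM in the libraries labelled ADX and 41.7, 42.9 and 38.5 CPM in sham-operated ones, not called (adjusted p = 0.474). For noise by surgery Eps8 gave the smallest p of the 38 members, with a log2 change of -0.44 (SE 0.11, adjusted p = 0.241).

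The other genes of this role were not called in edgeR, while Ptprq was called by DESeq2 with ADX in the average and by DESeq2 and limma voom after noise by day in ADX mice. Strc, the stereocilin of the links between bundle tops, and Ptprq, a phosphatase of the bundle's base, changed by -0.23 (SE 0.09, adjusted p = 0.2 in edgeR) and -0.42 (SE 0.13, adjusted p = 0.0863) with ADX. Grxcr1 changed by -0.55 (SE 0.21, adjusted p = 0.175). Rdx had group means between 174 and 182 CPM and an averaged change with ADX of -0.01 with a 95% interval from -0.06 to 0.03, and Triobp gave -0.01 with an interval from -0.07 to 0.06.

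**Figure D5:**
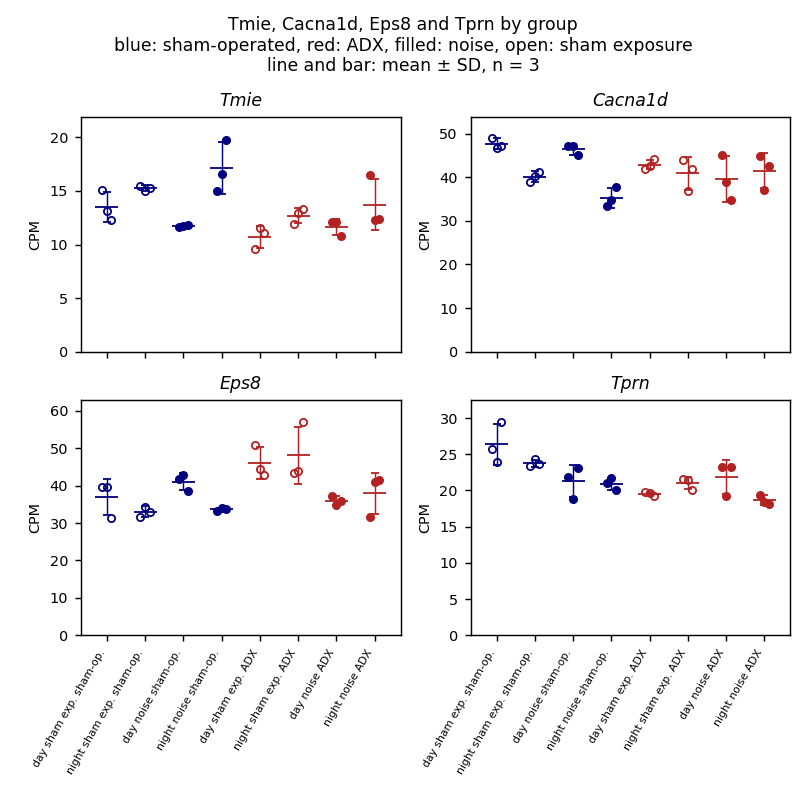
CPM of Tmie, Cacna1d, Eps8 and Tprn by group, with a point per library and the mean ± SD (n = 3), blue for sham-operated, red for ADX, filled for noise and open for sham exposure. Tmie is higher and Cacna1d lower at night in noise-exposed sham-operated mice, and Eps8 is highest in sham-exposed ADX mice.

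Slc26a5 and Ocm, which mark outer hair cells, had no call in any of the 18 comparisons by edgeR, DESeq2 or limma voom. Slc26a5 encodes prestin, the motor protein that changes the length of the cell, and its group means ran from 3.55 ± 0.477 CPM in night noise sham-operated to 4.31 ± 0.154 CPM in day noise sham-operated. The averaged change with ADX was -0.04 for Slc26a5 with a 95% interval from -0.21 to 0.13, and -0.01 for Ocm with an interval from -0.16 to 0.14. In day noise ADX, the group with the lowest mean over members, Ocm had 32.2, 43.4 and 25.8 CPM, beside 29.1, 33.8 and 37.8 CPM under sham exposure. These groups overlap, and the log2 change was 0.01 (SE 0.15).

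At the ribbon synapse Otof was called. Otof encodes otoferlin, the calcium sensor for release of transmitter, and lies at chr5:30367062-30461932 on the minus strand. It had 57.5 to 98.6 CPM with a median of 79.5 in ADX libraries and 82.5 to 126 CPM with a median of 96.4 in sham-operated ones. The arms overlap, and the 3 libraries labelled day noise ADX, at 64.2, 65.0 and 57.5 CPM, were the lowest of all 24. The averaged change with ADX was -0.33 (SE 0.08, adjusted p = 0.0217 in edgeR), passing in 24 of 24 fits that left out 1 library. Without the day noise groups it was -0.26 (SE 0.09, adjusted p = 0.0874 in edgeR) and did not pass. The ratio of the CPM of Otof to that of Ocm was 1.99, 1.5 and 2.23 in the libraries labelled day noise ADX. It was 3.17, 3.33 and 3.33 in night noise sham-operated, and lay between 2.17 and 3.29 in the other groups.

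Cacna1d encodes the calcium channel that triggers release at the ribbon, and neurons and other cells express it too. In noise-exposed sham-operated mice it had 33.3, 34.8 and 37.7 CPM by night and 47.1, 47.1 and 45.0 CPM by day. The night libraries were all lower, a log2 difference of -0.40 (SE 0.08, adjusted p = 0.022 in edgeR, rising to 0.0978 without night noise sham-operated b). Under sham exposure in sham-operated mice the groups did not overlap either, at 38.8 to 41.3 CPM by night and 46.8 to 49.1 CPM by day, but the change of -0.25 (SE 0.08, adjusted p = 0.207) did not pass. In ADX mice the change was -0.07 (SE 0.08) under sham exposure and 0.07 (SE 0.08) after noise. The difference between the surgeries, averaged over noise, was 0.32 (SE 0.08, adjusted p = 0.375) and was not called. Averaged over noise and surgery the change was -0.16 (SE 0.04, adjusted p = 0.0234), called in 24 of 24 fits that left out 1 library, and at an adjusted p of 0.0799 without the 5 libraries with other tissue. In noise-exposed sham-operated mice the adjusted p was 0.0802 without the 3 such libraries, 0.298 without the 5 and 0.0705 in a fit of these groups alone. Slc17a8, which loads glutamate into the vesicles of inner hair cells, and Cabp2, a regulator of the calcium channel, changed by -0.10 (SE 0.08) and -0.36 (SE 0.12, adjusted p = 0.131 in edgeR) with ADX. DESeq2 called Cabp2 after noise by day in ADX mice.

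Other genes were read beside the members. A further list of 35 hair cell genes, of which 34 were tested, gave 6 lower and 0 higher after noise by day in ADX mice (Rbm24, Espnl, Xirp2, Tomt, Clic5 and Homer2) with a median log2 change of -0.27, where 4.02% of all genes were called. With ADX in the average, where 3.2% were, 4 of the 34 were lower (Kcnn2, Espnl, Elmod1 and Pls1) and Myo1c was higher, with a median of -0.15. The centred mean of this list followed that of the members over the 24 libraries with a Pearson correlation of 0.908, and 0.857 without the 2 farthest libraries.

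Markers of supporting cells, the cells that surround hair cells, moved with the members too. The correlation of their centred mean with that of the members was 0.829, and 0.716 without the 2 farthest libraries. Their summed level, with 16 of 16 genes tested and 0 at a count of 0, was 1790 to 2240 CPM in day noise ADX and 2330 to 2460 CPM in day sham exposure ADX. Between these groups Otogl was called lower after noise and Lfng higher, with a list median of -0.29, and with ADX in the average Tectb alone was called, lower, with a list median of -0.13. For 4 markers of vestibular epithelium, of which 3 were tested, the summed level was 10.3 to 18.8 CPM in day noise ADX and 20.7 to 24.2 CPM in day sham exposure ADX. The median change of the tested 3 with ADX in the average was -0.46, and none was called. The correlations with the members were 0.55 for this list, 0.3 for spiral ganglion neurons, 0.29 for the stria vascularis, 0.256 for glia and -0.248 for bone. Without the 2 farthest libraries they were 0.344, 0.358, 0.133, 0.114 and -0.117 in the same order. After noise by day in ADX mice the list medians were -0.39 for glia (2180 to 3030 CPM summed, beside 3060 to 3530 under sham exposure), 0.33 for neutrophils and myeloid marrow (6570 to 12200 beside 5860 to 8020 CPM) and -1.56 for skeletal muscle (16.9 to 24.5 beside 18.9 to 80.9 CPM), with none of these genes called in edgeR. Of the bone genes, with a median of 0.17, Dmp1 and Acp5 were called higher. The part of other tissue in the change of the members was not tested.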

How the data were processed

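Per the labels' protocols, stranded TruSeq mRNA libraries were made from 300 ng of total RNA and sequenced as single reads on a HiSeq 2500. The authors deposited raw read counts per gene symbol. Per the submitters' processing notes TopHat2 2.0.11, HTSeq 0.6p1 and the build mm10 were used; the annotation and the strand setting are not given in the sources used here. Of the entries, 27 had names turned into dates and held 0.214% of the counts.

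The tests ran in edgeR 4.0.16 (R 4.3.3) on the deposited counts: filterByExpr (minimum count 10) on the 8 groups, TMM factors (0.974 to 1.02), 1 coefficient per group, robust quasi-likelihood F-tests (two-sided) of 18 contrasts, and Benjamini-Hochberg adjustment over 16607 genes with a threshold of 0.05. Alternatives used RLE factors, DESeq2 1.42.0, limma 3.58.1 voom with library weights, no filter, a replicate block, fewer libraries, and fits of the compared groups alone. Levels are CPM with TMM factors. Log2 levels used a prior count of 2. Exon lengths come from GENCODE (GRCm38). Within groups, the chi-square per gene of library pairs was 6.1 to 41.4 (summed count at least 20), so no library repeated another.

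Members in full are those past the threshold in a comparison, the 2 with the smallest p in each averaged comparison and the highest per length in each role. The list of members and the other lists were drawn up with earlier results of these data known.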

Additional observations from a re-analysis of the deposited data

How the results depend on the processing

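Of 22 calls of a named member in a comparison, 22 held with RLE factors, DESeq2 and limma voom, 19 with no filter on low counts, 18 with the replicate block and 19 without the 3 libraries with pituitary or cerebellar transcripts and 17 without 5; 5 of 9 held in fits of the 2 groups alone, and none changed sign in any of these. The calls that ended were Myo6 and Ush1c after noise by day in ADX mice and Pdzd7 with noise with no filter; Cacna1d after noise in sham-operated mice, Pdzd7 and Espn without the 3 libraries; the first 2 of these, Tmc2 with noise, Cacna1d averaged and Tprn with ADX without the 5; and Myo6 and Tmc2 after noise by day in ADX mice and Cacna1d and Tmie after noise in sham-operated mice in fits of the 2 groups alone. Counts of members called moved with the tool. DESeq2 called 12 (31.6%, beside 8.12% of all genes it tested) for noise by day in ADX mice, 2 (5.26%, 2.79%) for night minus day after noise in ADX mice, 1 (2.63%, 1.07%) for ADX by day and 3 (7.89%, 3.81%) for ADX by night under sham exposure, 4 (10.5%, 7.11%) for noise averaged, 14 (36.8%, 5.39%) for ADX averaged and 1 (2.63%, 0.405%) for noise by surgery. Limma voom called 9 (23.7%, 8.46%) for noise by day in ADX mice and 3 (7.89%, 6.62%) for noise averaged. It called 1 (2.63%, 0.674%) for ADX by day and 4 (10.5%, 7.48%) for ADX by night under sham exposure. For noise averaged the count was 1 with no filter, 1 with the replicate block, 1 without the 3 libraries and 1 over the 3 pairs other than day ADX. Without the 3 libraries it was 1 for night minus day after noise in sham-operated mice and 1 for ADX by day under sham exposure; without the 5 it was 1 for both, 2 for ADX by night under sham exposure, 0 for noise averaged and 1 for night minus day averaged; in fits of the 2 groups alone it was 0 for the former and 2 for ADX by night under sham exposure. Leaving out 1 library gave 0 to 10 for noise by day in ADX mice, 1 to 5 for noise averaged, 5 to 12 for ADX averaged, 0 to 1 for night minus day after noise in sham-operated and 0 to 2 in ADX mice, 0 to 2 for ADX after day noise and 0 to 1 for ADX by day and by night under sham exposure. The cause of these shifts was not tested, beyond the fewer libraries of the last. The main fit did not pair libraries by letter, as no label gives the meaning of the letters. The correlation of same-letter deviations was -0.271 to 0.41 (median 0.0162), beside a median of -0.00909 for other letters. Yet 16 of 24 libraries correlated best with their own letter, and what libraries of a letter share was not tested. With the block, Myo6 and Ush1c after noise by day in ADX mice, Pdzd7 with noise and Espn with ADX did not pass. Depth limits Grxcr1, Tmc2, Atoh1 and Myo3a, whose mean count was under 20.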
